A study of Arabidopsis thaliana with 24 samples.

Results

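The response of nrt1.13 shoots to nitrate supply at day 25 was measured by RNA-seq in 6 of the 24 libraries of the series. The members were chosen by their labels alone, as the 3 plants grown with 0.2 mM nitrate and the 3 plants grown with 2 mM nitrate that carry the nrt1.13 genotype and were harvested at day 25. All 6 are Arabidopsis thaliana shoots in the Col-0 background, each library made from 1 plant grown in hydroponic culture. The nrt1.13 line carries a T-DNA insertion in the fourth exon of NRT1.13 (AT1G33440) and is a single line, so its background and the lesion in NRT1.13 cannot be told apart. In the low-nitrate medium potassium chloride replaced part of the potassium nitrate, so less nitrate and more chloride cannot be told apart either. Days were counted from sowing in some labels and from germination in others. The other 18 libraries are wild-type shoots and nrt1.13 shoots of day 16 under the same nitrate supplies, used here only where the response in nrt1.13 at day 25 is set against that in wild type at day 25 or in nrt1.13 at day 16.

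Nitrate is taken up by NRT1 and NRT2 transporters, reduced by nitrate reductase and nitrite reductase, and built into amino acids by glutamine synthetase and glutamate synthase. It is also a signal, read in part by the NIN-like proteins, which turn on transporter, reductase and repressor genes. Plants short of nitrogen commonly lay down anthocyanins in the leaves and change their investment in the photosynthetic and protein synthesis machinery. NRT1.13 belongs to the NRT1/PTR transporter family and was studied for a part in the flowering of plants under low nitrate. The comparison asks how shoots that carry the insertion respond to the nitrate supply, and whether that response differs from the wild-type one.

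The deposited values are read counts scaled to library size (CPM) with a scaling factor per library. The depth recovered from them was 23608279 to 45409665 reads in the 0.2 mM plants and 32113488 to 35061728 reads in the 2 mM plants. Replicates of the 0.2 mM group correlated less closely with each other (mean Pearson r per plant 0.989 to 0.991, over genes) than those of the 2 mM group (0.995). Leaf photosynthesis markers summed to 25985 to 32184 CPM in the 0.2 mM plants and 25726 to 28354 CPM in the 2 mM plants. All 5 root markers and all 4 floral organ markers stayed under 2 CPM in all 6 libraries, and 1 root marker was at 0 in all of them. Expression was compared with limma over 15108 genes of at least 2 CPM in all 24 libraries. A gene is said below to have risen or fallen in 0.2 mM plants where its Benjamini-Hochberg adjusted p was at most 0.05, and to be called where it also changed at least 1.8-fold. In whole shoots, fewer cells of a type and less RNA per cell cannot be told apart.

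NRT1.13 itself had 3.01, 4.002 and 3.26 CPM in the 0.2 mM nrt1.13 plants, against 3.06, 4.65 and 3.78 CPM in the 2 mM nrt1.13 plants. Wild-type shoots at day 25 had 8.71, 8.34 and 7.16 CPM of NRT1.13 at 0.2 mM and 7.57, 8.07 and 7.62 CPM at 2 mM. The 6 mutant values were below all 6 wild-type values, and reads from the gene were still counted in the mutant. Within nrt1.13 the log2 fold change of NRT1.13 with nitrate was -0.15 ± 0.19 (SE) with an adjusted p of 0.58, and the groups overlapped. FLC, the MADS-box repressor of flowering, had 15.9, 18.5 and 14.6 CPM in the 0.2 mM plants, against 17.1, 12.4 and 14.1 CPM in the 2 mM plants, also overlapping. Its log2 fold change was 0.17 ± 0.21 with an adjusted p of 0.54. Wild-type shoots at day 25 had 5.998, 6.98 and 4.83 CPM of FLC at 0.2 mM and 6.799, 8.32 and 9.32 CPM at 2 mM. The 6 mutant values of FLC were above all 6 wild-type values. Mean FLC was 16.3 CPM at 0.2 mM and 14.5 CPM at 2 mM in nrt1.13. In wild type the means leaned the other way, with 5.93 and 8.15 CPM. The difference of the nitrate effect between genotypes did not pass the adjusted threshold for FLC.

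Low nitrate left a broad mark on the nrt1.13 shoot at day 25, with small changes in very many genes and larger ones mostly downward. The median log2 fold change was -1.46 over cold-regulated genes and -1.05 over salicylic acid defence genes, against 0.95 over anthocyanin genes and 0.56 over ribosomal protein genes. The cold-regulated and ribosomal groups were put together after some of their members had been seen to change, so their medians only describe them. Of the 15108 genes, 2890 rose (19.1%) and 3154 fell (20.9%), together 40.0%. The calls at 1.8-fold numbered 374 (2.48%), of which 89 rose (0.589%) and 285 fell (1.89%). Among them 38 of the genes that rose and 173 of those that fell were past 2-fold, and 1 and 13 were past 4-fold. Over whole sets of genes the median was 0.96 among called genes that rose, -1.06 among those that fell and -0.00 among all genes tested. The 3 plants of one group lay wholly above or below the 3 of the other for 372 of the 374 called genes (99.5%) and for 6966 of all genes (46.1%). For a single gene the exact permutation test of 3 plants against 3 cannot go below a two-sided p of 0.1. The calls rest instead on the variance of each gene over all 8 groups of the 24 libraries, moderated across genes. That variance is common to all groups. The 0.2 mM nrt1.13 plants deviated more from their group mean (rms log2 0.129 to 0.156) than the 2 mM plants (0.098 to 0.099).

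**Figure D1:**
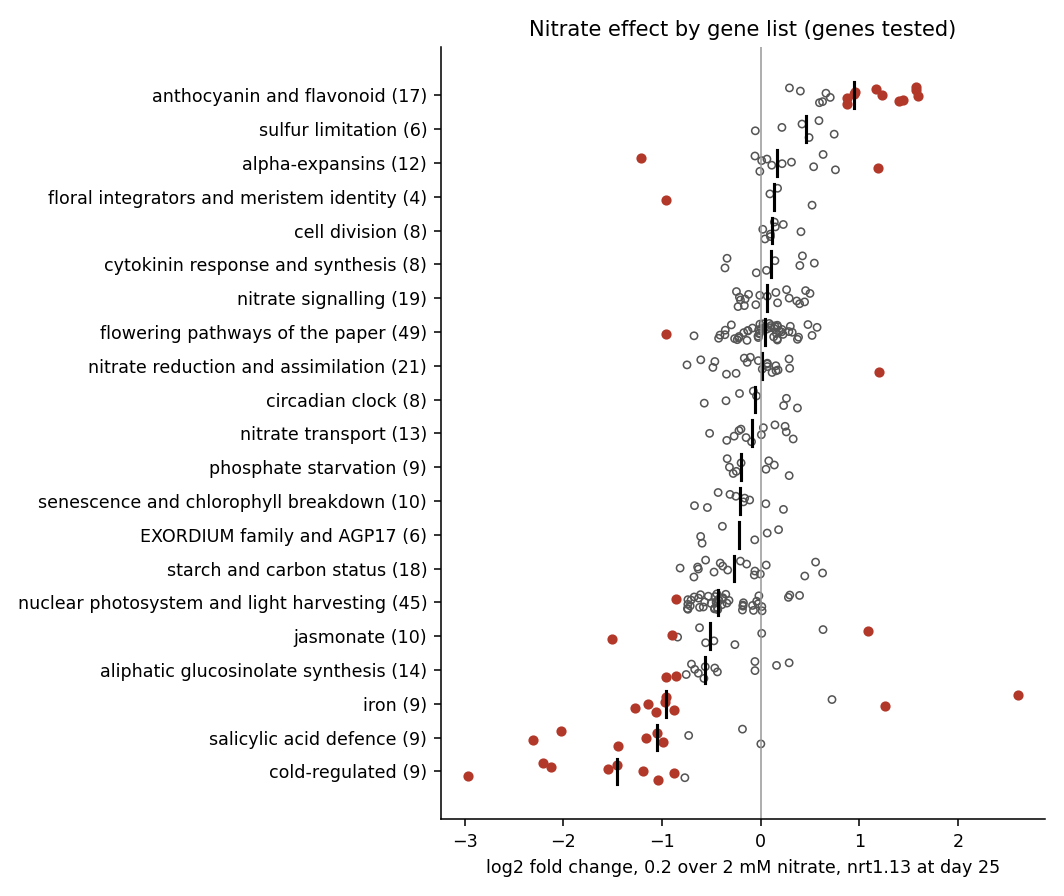
Each point is the log2 fold change (0.2 over 2 mM nitrate, nrt1.13 shoots at day 25, 3 plants each) of 1 tested gene, with genes grouped by list, the number tested in brackets, filled red points for called genes and a black bar at the median of the list. Anthocyanin genes lie to the right of 0 with a median of 0.95, and salicylic acid and cold-regulated genes lie to the left with medians of -1.05 and -1.46. The cold-regulated group was put together after its leading members had been seen.

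A further group held cold-regulated genes, which encode dehydrins and small protective proteins that gather in leaves during cold and drought. The group was put together after its leading members had been seen, so its counts only describe it. Of its 13 genes 9 were tested, all 9 fell and 8 were called. The median log2 fold change was -1.46. The inner envelope gene COR413IM1 (AT1G29395) had 13.7, 14.6 and 15.4 CPM in the 0.2 mM plants, against 110, 110 and 123 CPM in the 2 mM plants. LTI78 (AT5G52310), which responds to cold, drought and abscisic acid, had 29.8, 31.9 and 28.2 CPM in the 0.2 mM plants, against 153, 135 and 131 CPM in the 2 mM plants. COR15A (AT2G42540), a protective protein of the chloroplast stroma, had 70.2, 104 and 91.1 CPM in the 0.2 mM plants, against 382, 357 and 404 CPM in the 2 mM plants. In each of the 3 genes the replicates were tight and the groups far apart. The log2 fold changes were -2.96 ± 0.12 for COR413IM1 (adjusted p = 2.6e-15), -2.21 ± 0.12 for LTI78 (adjusted p = 1.8e-12) and -2.12 ± 0.14 for COR15A (adjusted p = 1.4e-11).

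The remaining members of the cold group followed at smaller sizes. COR15B, the neighbour and paralogue of COR15A, had 66.6, 87.7 and 86.6 CPM in the 0.2 mM plants, against 233, 222 and 247 CPM in the 2 mM plants (log2 -1.55). KIN2 had 196, 280 and 299 CPM in the 0.2 mM plants, against 662, 677 and 758 CPM in the 2 mM plants (log2 -1.46). ERD7 changed by -1.20, COR47, a dehydrin, by -1.04, COR413-PM1 by -0.88 and ERD10, the other dehydrin tested, by -0.77 on the log2 scale, the last below the 1.8-fold limit. No replicate of 0.2 mM reached the lowest 2 mM replicate in any of the 9. All 9 also fell under the other scalings and with each plant left out in turn. Of the 4 members under the filter, LTI30 had 1.08, 2.46 and 2.11 CPM in the 0.2 mM plants, against 4.11, 4.96 and 3.84 CPM in the 2 mM plants, and KIN1 had 0.254, 0.352 and 0.621 CPM in the 0.2 mM plants, against 1.75, 1.25 and 2.09 CPM in the 2 mM plants. LTI65 and GolS3 stayed at or below 1.134 CPM in all 6 plants.

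Many genes of this kind carry the letters CCGAC, the core of the C-repeat or dehydration-responsive element that CBF/DREB factors bind. The 250 bases before the gene start were searched on both strands for CCGAC in the 5 cold genes with the largest falls, using the TAIR10.1 genome and RefSeq gene starts. They are shown because these 5 had the most negative log2 fold changes of the group. LTI78 holds 3 matches and COR15A 2, while COR413IM1, COR15B and KIN2 hold 0. COR15B starts at chr2:17710433 on the minus strand, and COR15A spans chr2:17710441-17712330. The bases searched for COR15B therefore lie almost wholly inside the COR15A gene. Over all 26710 protein-coding genes 3178 hold at least 1 match (11.9%). In the lines below the match is in capitals with 10 bases on each side, read 5′ to 3′ in the direction of the gene, and GTCGG marks a match on the opposite strand. The LTI78 windows lie at chr5:21240567-21240591, chr5:21240617-21240641 and chr5:21240674-21240698 on the plus strand, and those of COR15A at chr2:17712458-17712482 and chr2:17712395-17712419 on the minus strand. A match is only a description of the letters in these windows, and binding was not measured.
LTI78, window 1: tagacatggaCCGACtactaataat
LTI78, window 2: aaatatcataCCGACatcagtttga
LTI78, window 3: agatatactaCCGACatgagttcca
COR15A, window 1: ttgcaaccttGTCGGtttattttgt
COR15A, window 2: aacttgttggCCGACatacatttgt

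Salicylic acid defence genes fell together. Of 14 listed 9 were tested, 7 fell and 6 were called, with none rising, and the median log2 fold change was -1.05. LURP1, needed for full basal defence against a downy mildew, had 97.9, 145 and 160 CPM in the 0.2 mM plants, against 734, 609 and 611 CPM in the 2 mM plants. The transcription factor gene WRKY70 had 31.4, 36.4 and 39.7 CPM in the 0.2 mM plants, against 157, 139 and 142 CPM in the 2 mM plants. SARD1, a transcription factor of salicylic acid synthesis, had 4.16, 3.87 and 3.53 CPM in the 0.2 mM plants, against 11.6, 10.04 and 10.3 CPM in the 2 mM plants. The groups did not overlap in any of these. Log2 fold changes were -2.30 ± 0.22 for LURP1 (adjusted p = 8.6e-09), -2.03 ± 0.15 for WRKY70 (adjusted p = 1.6e-10) and -1.45 ± 0.17 for SARD1 (adjusted p = 1.9e-07). WRKY54, which acts with WRKY70, changed by -1.16, PAD4, a lipase-like defence regulator, by -1.05 and PR5, a pathogenesis-related protein, by -0.99. EDS1, the partner of PAD4, fell by 0.73 on the log2 scale without reaching 1.8-fold.

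Not all of the pathway moved. ICS1, the isochorismate synthase that makes the salicylic acid precursor, had 7.17, 7.21 and 7.36 CPM in the 0.2 mM plants, against 7.27, 7.26 and 7.18 CPM in the 2 mM plants (log2 0.00 ± 0.11). PR2, a glucanase, had a log2 fold change of -0.18 ± 0.28 (adjusted p = 0.64). Below the filter, NIMIN1, whose product binds the salicylic acid co-activator NPR1, had 1.21, 2.46 and 3.33 CPM in the 0.2 mM plants, against 9.89, 7.06 and 9.18 CPM in the 2 mM plants. PR1, the usual marker of the pathway, stood the other way, with 4.57, 4.53 and 7.92 CPM in the 0.2 mM plants, against 0.992, 2.61 and 1.62 CPM in the 2 mM plants. Its groups did not overlap, and its exact permutation p of 0.1 is the smallest possible with n = 3 each. WRKY genes as a family, counted after WRKY70 had been seen, held 21 tested members of 67, of which 1 rose, 7 fell and 3 were called, with a median of -0.06. The called ones were WRKY70, WRKY54 and WRKY33, a regulator of camalexin synthesis with 4.69, 4.62 and 6.32 CPM in the 0.2 mM plants, against 17.2, 13.7 and 16.3 CPM in the 2 mM plants (log2 -1.58 ± 0.16).

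Other large falls lay near defence and jasmonate signalling by annotation. FAMT (AT3G44860), which encodes a farnesoic acid methyltransferase, had 2.28, 7.30 and 2.71 CPM in the 0.2 mM plants, against 30.4, 25.7 and 31.3 CPM in the 2 mM plants. Its log2 fold change of -2.99 ± 0.29 (adjusted p = 9.7e-09) was the most negative of all genes tested. CORI3, a jasmonate-responsive gene of the tyrosine transaminase family, had 41.4, 91.7 and 43.6 CPM in the 0.2 mM plants, against 302, 268 and 317 CPM in the 2 mM plants (log2 -2.42 ± 0.19). GSTF2, a glutathione S-transferase, had 32.0, 33.3 and 36.0 CPM in the 0.2 mM plants, against 199, 167 and 129 CPM in the 2 mM plants (log2 -2.26 ± 0.20). In FAMT and CORI3 plant 2 was the highest of the 0.2 mM plants, yet all 3 stayed below every 2 mM plant. HR4, a homologue of the powdery mildew resistance gene RPW8, changed by -2.32, the receptor kinase gene RK3 by -2.03, the cation channel gene CNGC3 by -1.92 and SIB1, whose product binds a sigma factor, by -1.92. XBAT34 changed by -2.13, and AT5G08760 and AT1G76960, both annotated as uncharacterized proteins, by -2.18 and -2.14. These are the 15 largest falls together with COR413IM1, LURP1, LTI78, COR15A and WRKY70.

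**Figure D2:**
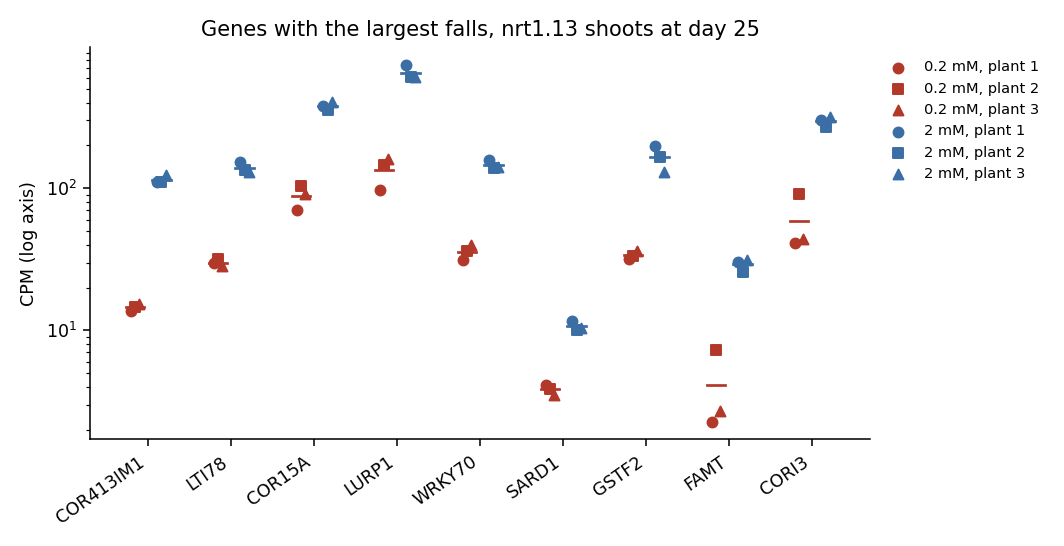
CPM (log axis) of 9 genes that fell in each of the 3 nrt1.13 plants at 0.2 mM nitrate (red) and the 3 at 2 mM (blue) at day 25, with marker shapes for plants and lines at the group means. The red and blue points of each gene are apart, and plant 2 of the 0.2 mM group is the highest red point for FAMT and CORI3.

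Jasmonate genes were mixed. Of 12 listed 10 were tested, 6 fell, 1 rose and 3 were called, with a median of -0.52. AOC1, an allene oxide cyclase of jasmonate synthesis, had 5.14, 6.95 and 4.46 CPM in the 0.2 mM plants, against 16.8, 14.6 and 15.4 CPM in the 2 mM plants (log2 -1.51 ± 0.21). The other synthesis genes that fell were LOX2 (log2 -0.90), AOC2 (-0.84), AOS (-0.62) and OPR3 (-0.47), and the regulator MYC2 changed by -0.56. Only the first of these was called, and LOX2 was not called without plant 1 or without plant 3 of the 0.2 mM group. VSP2, a storage protein that jasmonate induces, had 145, 423 and 168 CPM in the 0.2 mM plants, against 92.6, 98.7 and 118 CPM in the 2 mM plants (log2 1.08 ± 0.33, adjusted p = 0.011). It was not called without plant 2 of the 0.2 mM group. All 10 tested jasmonate genes were highest in that plant among the 0.2 mM plants, and the median without it was -0.72. TAT3, an aminotransferase gene induced by jasmonate that lay below the filter, had 1.21, 3.34 and 0.754 CPM in the 0.2 mM plants, against 23.9, 12.7 and 18.9 CPM in the 2 mM plants.

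Anthocyanin and flavonoid genes rose in nearly all tested cases. Of 22 listed 17 were tested, 16 rose, none fell and 11 were called, and the median log2 fold change was 0.95. Among early steps, CHS, the chalcone synthase that opens the pathway, had 222, 389 and 210 CPM in the 0.2 mM plants, against 127, 121 and 160 CPM in the 2 mM plants (log2 0.96 ± 0.18). Among late steps, DFR, dihydroflavonol reductase, had 40.1, 82.9 and 28.4 CPM in the 0.2 mM plants, against 19.1, 19.6 and 22.2 CPM in the 2 mM plants (log2 1.17 ± 0.25). LDOX, which makes the coloured anthocyanidins, had 36.6, 89.9 and 28.4 CPM in the 0.2 mM plants, against 17.3, 18.2 and 22.9 CPM in the 2 mM plants (log2 1.23 ± 0.29). All 0.2 mM plants exceeded all 2 mM plants in these genes, and plant 2 was far above plants 1 and 3. The largest rises were in genes that decorate or carry the pigment. TT19, a glutathione S-transferase for transport of the pigment to the vacuole, had 29.3, 58.5 and 29.1 CPM in the 0.2 mM plants, against 11.4, 11.4 and 14.2 CPM in the 2 mM plants (log2 1.58 ± 0.22, adjusted p = 1.8e-06). The glycosyltransferase UGT79B1 had 19.0, 55.5 and 15.5 CPM in the 0.2 mM plants, against 7.27, 7.43 and 11.2 CPM in the 2 mM plants (log2 1.58 ± 0.30, adjusted p = 0.00014). The glycosyltransferase gene AT4G14090 changed by 1.594, the malonyltransferase gene 5MAT (AT3G29590) by 1.44 and SCPL10, a serine carboxypeptidase-like acyltransferase, by 1.41.

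The size of the anthocyanin rise depended on 1 plant. Plant 2 of the 0.2 mM group was the highest of its group for 16 of the 17 tested genes. Without it 13 of the 17 rose, 5 were called and the median was 0.68, and CHS, DFR, LDOX, F3H, F3'H and PAP1 were no longer called. PAP1, the MYB activator of the pathway, had 6.19, 13.7 and 4.68 CPM in the 0.2 mM plants, against 3.91, 3.86 and 4.15 CPM in the 2 mM plants (log2 0.87 ± 0.24). TT8, its bHLH partner, lay below the filter with 4.41, 8.36 and 3.42 CPM in the 0.2 mM plants, against 2.22, 1.64 and 2.41 CPM in the 2 mM plants. MYBL2, a repressor of the pathway, rose by 0.63 on the log2 scale. PAP2 and MYB113, the other MYB activators listed, stayed at or below 0.528 CPM in all 6 plants. MYB111, an activator of flavonol genes, did not pass the test (log2 0.29 ± 0.12, adjusted p = 0.055).

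**Figure D3:**
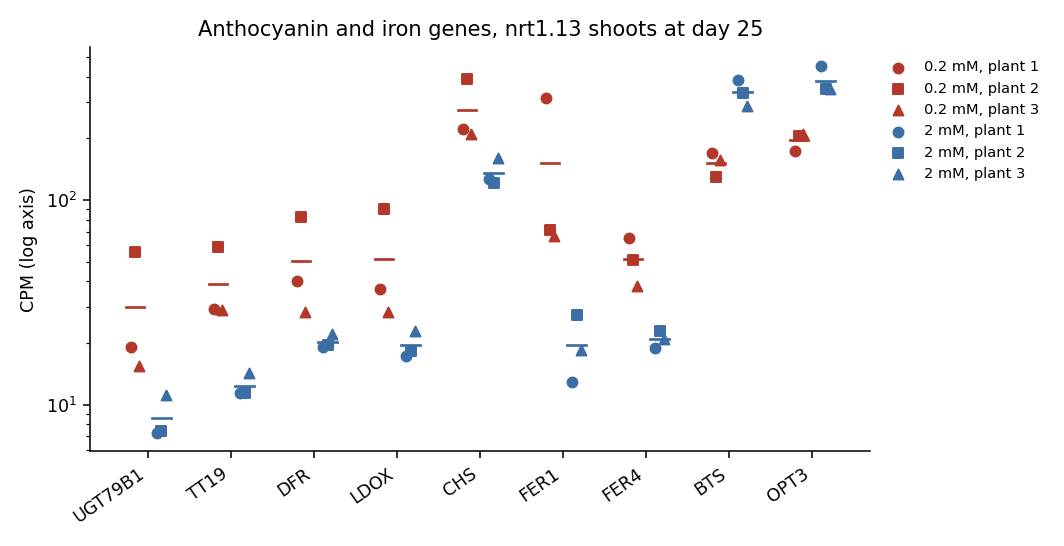
CPM (log axis) of 5 anthocyanin genes and 4 iron genes in each nrt1.13 plant at 0.2 mM nitrate (red) and 2 mM (blue) at day 25, with marker shapes for plants and lines at the group means. Plant 2 leads the 0.2 mM group for the anthocyanin genes, and plant 1 leads it for FER1 with 315 CPM.

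Iron storage and iron deficiency genes formed a list of 15, of which 9 were tested. All 9 passed the test, 3 of them upward and 6 downward, and 8 were called. Without plant 1 of the 0.2 mM group 1 rose, the ferritin FER4, 5 fell and 5 were called. FER1, a ferritin that stores iron in plastids, had 315, 71.1 and 66.7 CPM in the 0.2 mM plants, against 12.8, 27.4 and 18.5 CPM in the 2 mM plants. Its log2 fold change of 2.61 ± 0.73 (adjusted p = 0.0056) was the largest rise of all genes tested. Without that plant it was 1.88 and no longer passed the test. FER1 also varied between replicates elsewhere, with 30.1, 251 and 31.4 CPM in wild-type plants of 2 mM at day 25. FER4, another ferritin, had 65.3, 50.8 and 38.04 CPM in the 0.2 mM plants, against 19.0, 22.8 and 20.9 CPM in the 2 mM plants (log2 1.26 ± 0.23), and FER3 rose by 0.72 on the log2 scale. NEET, an iron-sulphur protein gene outside the list, had 59.1, 84.4 and 64.3 CPM in the 0.2 mM plants, against 18.4, 27.6 and 26.4 CPM in the 2 mM plants (log2 1.52 ± 0.20). CAT2, a haem catalase of leaf peroxisomes also outside the list, had 293, 298 and 232 CPM in the 0.2 mM plants, against 90.2, 120 and 109 CPM in the 2 mM plants (log2 1.37 ± 0.17).

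Regulators and carriers of iron made up the falling members. BTS, a ubiquitin ligase that restrains the deficiency response, had 169, 129 and 157 CPM in the 0.2 mM plants, against 387, 333 and 287 CPM in the 2 mM plants (log2 -1.14 ± 0.21). OPT3, which loads iron into the phloem, had 172, 205 and 209 CPM in the 0.2 mM plants, against 452, 349 and 346 CPM in the 2 mM plants (log2 -0.96 ± 0.22). The bHLH factor gene PYE changed by -0.96, the ferric reductase gene FRO3 by -1.06, the nicotianamine synthase gene NAS4 by -0.88 and AT2G30766 by -1.27. AT2G30766 is annotated as uncharacterized and was listed among the IMA genes of iron deficiency. Of the falling members only BTS was called with every single plant left out in turn. FRO3 was lost without plant 2 and PYE without plant 1 of the 0.2 mM group, OPT3 without plant 1 of the 2 mM group, NAS4 in 3 of the 6 cases and AT2G30766 in 5 of the 6. Under the filter lay 4 bHLH genes that are turned on by iron deficiency. BHLH38 had 2.47, 1.0996 and 3.13 CPM in the 0.2 mM plants, against 12.4, 8.25 and 5.90 CPM in the 2 mM plants. BHLH100 had 16.9, 6.60 and 14.995 CPM in the 0.2 mM plants, against 54.6, 41.5 and 31.4 CPM in the 2 mM plants. BHLH39 and BHLH101 were lower in every 0.2 mM plant than in every 2 mM plant too. With a mean of at least 2 CPM as the filter, 14 of the iron list were tested, 3 rose and 10 fell. The genes added by that filter pass through the libraries in which they are high, so these counts only describe them.

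Transporters and enzymes that handle nitrate itself changed little. Of 20 nitrate transport genes 13 were tested, 1 rose, 3 fell and none was called, with a median log2 fold change of -0.09. Among all genes tested 19.1% rose and 20.9% fell. NRT1.7, which moves nitrate out of old leaves through the phloem, had 48.1, 55.3 and 43.7 CPM in the 0.2 mM plants, against 73.8, 71.8 and 64.4 CPM in the 2 mM plants (log2 -0.52 ± 0.09, adjusted p = 4.0e-05). NRT1.11 and NRT1.12, which shift nitrate from xylem to phloem in leaf petioles, changed by -0.27 and -0.22, and CLCA, the vacuolar nitrate exchanger, by 0.25. The dual-affinity transporter and sensor NRT1.1 had a log2 fold change of -0.09 ± 0.10 (adjusted p = 0.50).

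The reductases also stayed near level. NIA2, the main nitrate reductase, had 275, 302 and 320 CPM in the 0.2 mM plants, against 280, 266 and 280 CPM in the 2 mM plants (log2 0.12 ± 0.08, adjusted p = 0.24). NIA1 gave 0.18 ± 0.11 (adjusted p = 0.21) and the nitrite reductase gene NIR1 0.02 ± 0.10 (adjusted p = 0.91). Over the 21 tested of 23 reduction and assimilation genes, 4 rose, 7 fell, 1 was called and the median was 0.02. The shares over all genes tested were 19.1% rising, 20.9% falling and 2.48% called. Ammonium transporters moved in opposite directions. AMT1;2 (AT1G64780) had 14.6, 21.8 and 15.4 CPM in the 0.2 mM plants, against 7.27, 7.37 and 7.31 CPM in the 2 mM plants (log2 1.21 ± 0.12, adjusted p = 1.2e-08). AMT1;1 (AT4G13510) had 131, 172 and 142 CPM in the 0.2 mM plants, against 268, 236 and 240 CPM in the 2 mM plants (log2 -0.75 ± 0.11, adjusted p = 3.2e-06). The cytosolic glutamine synthetase gene GLN1;1 changed by -0.61, AMT2;1 by -0.48 and the glutamate dehydrogenase gene GDH1 by -0.46.

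Nitrate signalling genes rose slightly where they moved at all, 7 of the 19 tested of 22 listed, with none falling, none called and a median of 0.07. The same threshold was passed by 40.0% of all genes tested, 19.1% upward and 20.9% downward. LBD39, a repressor that nitrate induces, had 11.4, 10.95 and 13.6 CPM in the 0.2 mM plants, against 7.59, 8.88 and 8.75 CPM in the 2 mM plants (log2 0.50 ± 0.10). TGA1, a bZIP regulator of nitrate responses, changed by 0.46, the NIN-like protein gene NLP6 by 0.40 and BT2, a scaffold protein gene of nitrogen use, by 0.37. Type-A cytokinin response regulators, which report cytokinin signalling, included ARR9 (log2 0.54), ARR6 (0.42) and ARR8 (0.40), the 3 of 8 tested cytokinin genes of 13 listed that rose, with none falling.

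Ribosomal protein genes were mostly higher in 0.2 mM plants and photosystem genes mostly lower. Nuclear genes with ribosomal protein in their product name numbered 327, a group counted after several had been seen among the risers. Names that mention mitochondria, chloroplasts or plastids were left out. Any other members outside the cytosolic ribosome were not sorted out. Of the 291 tested 230 rose, 10 fell and 13 were called, with a median log2 fold change of 0.56, and 247 did not overlap between groups. Among all genes tested 19.1% rose, 20.9% fell, 2.48% were called and 46.1% did not overlap. AT3G09200, an L10 family member, had 1419, 1508 and 1546 CPM in the 0.2 mM plants, against 790, 738 and 750 CPM in the 2 mM plants (log2 0.97 ± 0.06, adjusted p = 1.4e-11). AT2G40010, another L10 family gene, had 36.2, 34.7 and 39.2 CPM in the 0.2 mM plants, against 15.4, 13.0 and 12.3 CPM in the 2 mM plants (log2 1.43 ± 0.13). Many ribosomal proteins have near-identical paralogues between which uniquely mapped reads are split unevenly, so single members are less certain than the group. FIB2, a fibrillarin of ribosomal RNA processing that is outside the group, had 145, 133 and 128 CPM in the 0.2 mM plants, against 58.7, 63.9 and 59.1 CPM in the 2 mM plants (log2 1.16 ± 0.12). Under quantile normalization 225 rose, 10 fell and 8 were called, with a median of 0.49, and without plant 1 of the 0.2 mM group 22 were called.

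The nuclear photosystem and light-harvesting list held 45 genes, among them 4 Rubisco small subunit genes and, through its symbol rule, PSAT1 and PSAT, which are other enzymes. All 45 were tested, 3 rose, 30 fell, 1 was called and the median was -0.43. PSBQ-2, a subunit of photosystem II, had 854, 905 and 895 CPM in the 0.2 mM plants, against 1612, 1625 and 1565 CPM in the 2 mM plants (log2 -0.86 ± 0.07, adjusted p = 7.8e-10). PSBQ-2, the 1 called member, was under 1.8-fold without plant 1 of the 0.2 mM group or plant 2 of the 2 mM group. LHCA2, an antenna protein of photosystem I, had 1678, 2105 and 2037 CPM in the 0.2 mM plants, against 3343, 3153 and 3163 CPM in the 2 mM plants (log2 -0.74 ± 0.08). PSAK, a photosystem I subunit, also changed by -0.74. The 3 that rose were PSB28 (log2 0.28), a photosystem II assembly factor, and the Rubisco small subunit genes RBCS2B (0.40) and RBCS1B (0.30). Without the Rubisco genes, PSAT1 and PSAT, left out after the list had been seen, 1 of 39 rose and 29 fell, with a median of -0.44. Under quantile normalization the median of the 45 was -0.30, with 3 rising and 30 falling. Plastid genes are poorly captured by the poly(A) selection used, and their summed level was 124 to 183 CPM in the 0.2 mM plants and 114 to 383 CPM in the 2 mM plants. Of the 133 only 9 were tested, 1 rose and 4 fell, and their median of -0.34 ranged from -1.11 to 0.17 when single plants were left out.

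**Figure D4:**
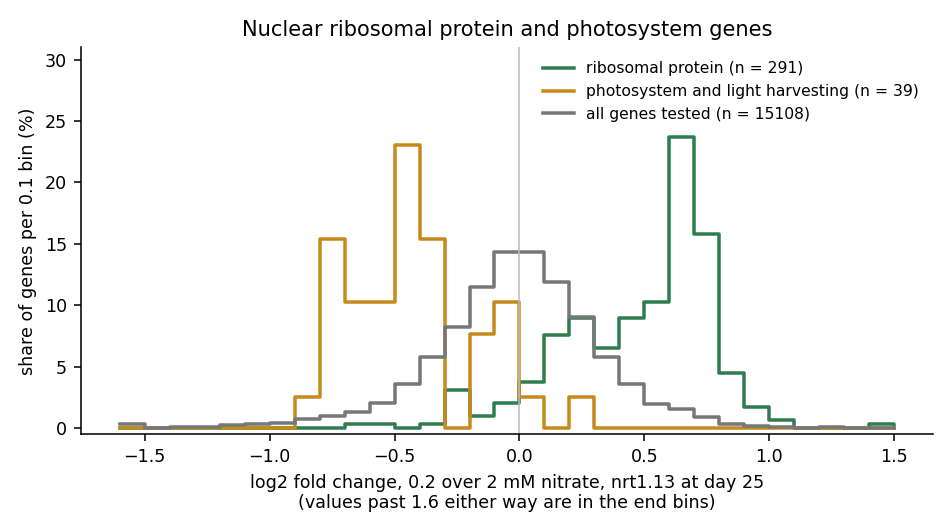
Share of genes (%) per bin of log2 fold change (0.2 over 2 mM nitrate, nrt1.13 shoots at day 25) for nuclear ribosomal protein genes, the 39 nuclear photosystem and light-harvesting genes and all genes tested. The ribosomal curve is shifted right (median 0.56) and the photosystem curve left (median -0.44) of the curve for all 15108 genes. The ribosomal group was counted after several members had been seen among the risers.

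Starch, glucosinolate and sulphur genes were also followed, beside 19.1% rising, 20.9% falling and 2.48% called among all genes tested. Of 18 tested starch and carbon status genes of 21 listed, 3 rose, 8 fell and none was called, with a median of -0.27. SEX4, the glucan phosphatase of starch breakdown, had 68.2, 74.9 and 65.7 CPM in the 0.2 mM plants, against 118, 126 and 124 CPM in the 2 mM plants (log2 -0.82 ± 0.06, adjusted p = 3.3e-10). The glucan, water dikinase gene SEX1 changed by -0.68, the phosphorylase gene PHS2 by -0.63 and the disproportionating enzyme gene DPE1 by -0.56. The risers were the trehalose phosphate synthase-like genes TPS11 (log2 0.63) and TPS9 (0.45) and DIN10 (0.56), known as markers of low sugar. In aliphatic glucosinolate synthesis 14 of 15 were tested, 10 fell, none rose and 2 were called, with a median of -0.57. CYP79F1, which commits chain-elongated methionine to the pathway, had 137, 187 and 98.8 CPM in the 0.2 mM plants, against 255, 276 and 267 CPM in the 2 mM plants (log2 -0.96 ± 0.14). Without plant 3 of the 0.2 mM group 8 fell, none was called and the median was -0.41. Sulphur limitation genes rose in 4 of 6 tested of 10 listed with a median of 0.46 and none falling. APR2, a reductase of sulphate assimilation, had 101, 110 and 117 CPM in the 0.2 mM plants, against 60.7, 67.6 and 67.2 CPM in the 2 mM plants (log2 0.75 ± 0.09).

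Growth and nutrient genes were counted by list, beside 19.1% rising and 20.9% falling among all genes tested. Among 12 tested alpha-expansins, which loosen cell walls, of 23 listed, 6 rose, 1 fell and 2 were called. EXPA1 had 378, 348 and 366 CPM in the 0.2 mM plants, against 152, 169 and 157 CPM in the 2 mM plants (log2 1.19 ± 0.09), and EXPA16 had 3.87, 4.09 and 3.42 CPM in the 0.2 mM plants, against 8.75, 9.67 and 8.25 CPM in the 2 mM plants (log2 -1.21 ± 0.15). GASA6, a gibberellin-regulated gene outside that list, had 103, 68.7 and 110 CPM in the 0.2 mM plants, against 33.5, 39.0 and 44.3 CPM in the 2 mM plants (log2 1.25 ± 0.17). The largest rises not yet named were AT1G60590, a pectin lyase-like gene (log2 1.30), AT4G17470, a hydrolase gene (1.27), and AT1G64360, annotated as uncharacterized (1.26), of which AT4G17470 was not called without plant 2 of the 0.2 mM group or plant 1 of the 2 mM group. Of 8 cell division genes, all tested, 1 rose and none fell, and of 6 tested EXORDIUM and AGP17 genes of 7 listed, 1 rose and 3 fell. Among 9 tested phosphate starvation genes of 20 listed, none rose, 3 fell and none was called. None of 10 tested leaf senescence and chlorophyll breakdown genes of 20 listed rose and 5 fell, with a median of -0.21. PAO, which opens the chlorophyll ring in breakdown, changed by -0.54, the pheophytinase gene PPH by -0.31 and SAG101 by -0.43. Of 8 tested clock genes of 12 listed, 3 rose and 3 fell, among them GI (log2 0.37) and ELF4 (-0.57).

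Flowering genes gave 1 call. SOC1, an integrator that promotes flowering, had 10.2, 9.76 and 12.6 CPM in the 0.2 mM plants, against 19.1, 22.6 and 21.6 CPM in the 2 mM plants (log2 -0.96 ± 0.10, adjusted p = 5.1e-08). SNZ, an AP2-like floral repressor, had 40.4, 42.5 and 42.6 CPM in the 0.2 mM plants, against 27.7, 28.4 and 31.3 CPM in the 2 mM plants (log2 0.52 ± 0.08). Its relative SMZ, below the filter, had 7.39, 8.75 and 6.30 CPM in the 0.2 mM plants, against 2.39, 1.67 and 1.91 CPM in the 2 mM plants. FT, which encodes the mobile flowering signal, was low, with 0.127, 0.088 and 0.399 CPM in the 0.2 mM plants, against 0.642, 0.936 and 1.499 CPM in the 2 mM plants. AP1, a floral meristem identity gene, was at 0 in all 0.2 mM plants and at 0.117, 0.170 and 0.250 CPM in the 2 mM plants. In these 5 genes the groups did not overlap. The 5 were picked from the 11 floral integrator and meristem identity genes, whose 4 tested members included 2 without overlap. Of the 49 flowering pathway genes taken from the study 24 had no overlap. Both lists lay near the 46.1% without overlap among all genes tested, a share that does not cover SMZ, FT and AP1 below the filter. With 1 read worth 0.0284 to 0.0312 CPM in the 2 mM plants and 0.0222 to 0.0440 CPM in the 0.2 mM plants, AP1 rests on few reads. So does FT at 0.2 mM. Of 11 floral integrator and meristem identity genes 4 were tested, 1 rose and 1 fell. TSF, LFY, FUL and CAL of that list also lay below the filter, and their values are not given here. Of 49 flowering pathway genes taken from the study and all tested, 13 rose, 9 fell and 1 was called, with a median of 0.04. The shares among all genes tested were 19.1% rising, 20.9% falling and 2.48% called. The larger changes among them were in SPL3 (log2 -0.68), a factor of the age pathway, and the GATA factor gene GNL (0.57).

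The response in nrt1.13 closely resembled that of wild type at the same day. In wild type 370 genes were called (2.45%), 69 upward (0.457%) and 301 downward (1.99%), and the 2 comparisons share no library. Of the 374 genes called in nrt1.13, 372 changed in the same direction in wild type and 282 were also called there, which is 75.4% of the nrt1.13 calls and 76.2% of the wild-type calls. The median size of the change among the 374 was 1.04 on the log2 scale in both genotypes. Over all 15108 genes the log2 fold changes had a Pearson r of 0.91, a description across genes that share the library scaling and are not independent. The difference of the nitrate effect between genotypes passed the adjusted threshold for no gene in limma, with 338 genes at an unadjusted p of at most 0.05 (2.24%). The counts were likewise 0 in edgeR, with 334 unadjusted (2.21%), and 0 in DESeq2, with 314 unadjusted (2.08%). The cold group had a median of -1.46 in nrt1.13 and -1.51 in wild type, ribosomal protein genes 0.56 and 0.57, and the 45 genes of the photosystem list -0.43 and -0.42.

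Some values leaned apart between genotypes without passing that test. Only 2.24% of all genes were at an unadjusted p of at most 0.05, fewer than that threshold alone would give with no difference. The values below are therefore only descriptions. LURP1 changed by -2.30 in nrt1.13 and -3.15 in wild type (difference unadjusted p = 0.012), and WRKY70 by -2.03 and -2.68 in the same order (unadjusted p = 0.0045). The anthocyanin median was 0.95 in nrt1.13 and 0.45 in wild type. All 17 tested anthocyanin genes had a larger log2 fold change in nrt1.13, 5 at an unadjusted p of at most 0.05 and none after adjustment, and plant 2 of the 0.2 mM nrt1.13 group was the highest as given above. The iron median was -0.96 in nrt1.13 and -0.35 in wild type. FSD1, an iron superoxide dismutase singled out after its values were seen for the smallest unadjusted p, had 121, 174 and 84.2 CPM in 0.2 mM nrt1.13 plants, against 136, 161 and 149 CPM in 2 mM nrt1.13 plants. In wild type FSD1 had 86.4, 78.8 and 64.5 CPM in 0.2 mM plants, against 179, 200 and 170 CPM in 2 mM plants. Its log2 fold change was -0.29 in nrt1.13 and -1.26 in wild type, with an unadjusted p of 0.00041 for the difference and an adjusted p of 1.

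At day 16 the same genotype showed much less of a nitrate response. Only 7 genes were called (0.0463%), all downward, and 427 passed the adjusted p alone (2.83%). Of the 374 genes called at day 25, 272 had the same direction at day 16 and 6 were called there, which is 1.6% of the day 25 calls and 85.7% of the day 16 calls. Their median size was 1.04 at day 25 and 0.24 at day 16, and the Pearson r over all genes was 0.10. The effect differed between days for 4400 genes (29.1%), 2003 upward (13.3%) and 2397 downward (15.9%). All 9 tested cold genes were among them, COR413IM1 with a log2 fold change of -2.96 at day 25 and 0.02 at day 16, and COR15A with -2.12 and 0.66. Of the 291 tested ribosomal protein genes 208 differed, and of the 45 in the photosystem list 25. The 374 called genes and the cold and ribosomal groups were picked by or after their day 25 values, which favours a difference from day 16. In the anthocyanin list 6 of 17 differed, in the salicylic acid list 4 of 9 and in the iron list 1 of 9. The list medians at day 25 and day 16 were 0.95 and 0.30 for anthocyanin, -1.05 and -0.41 for salicylic acid, -0.96 and -0.25 for iron and 0.56 and 0.03 for ribosomal protein genes. Age was the only labelled difference between the plants of the 2 days.

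**Figure D5:**
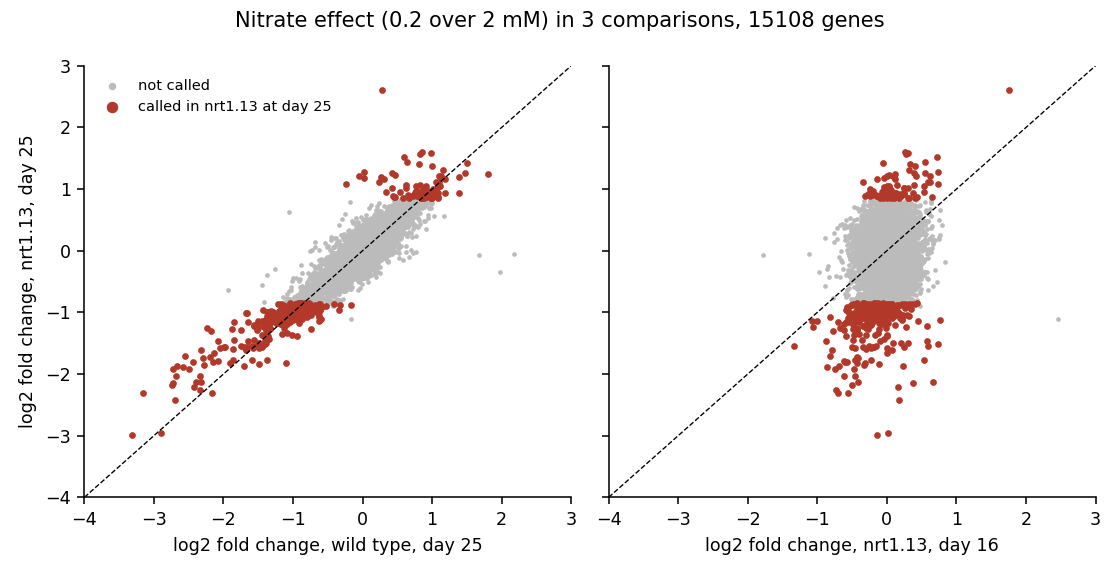
Log2 fold change (0.2 over 2 mM nitrate) of each of 15108 genes in nrt1.13 at day 25 (vertical axis) against wild type at day 25 (left) and nrt1.13 at day 16 (right), with the 374 genes called in nrt1.13 at day 25 in red and the dashed line at equal values. Red points follow the line against wild type, with FER1 apart at 2.61 and 0.27, and most lie near 0 on the horizontal axis at day 16.

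Genes of low level were left out by the filter. With a mean of at least 2 CPM in place of the minimum in every library, 1062 more genes were tested and 146 of them were called (13.7%), 35 upward (3.3%) and 111 downward (10.5%). Such genes pass when 1 group is high, so this share is no comparison with the others. BG3, a beta-1,3-glucanase, had 0.381, 0.352 and 0.577 CPM in the 0.2 mM plants, against 9.89, 6.41 and 5.72 CPM in the 2 mM plants (log2 -3.78). ERF2, an ethylene response factor, had 1.71, 1.803 and 1.89 CPM in the 0.2 mM plants, against 12.8, 8.93 and 10.3 CPM in the 2 mM plants (log2 -2.49). PCR1 had 3.87, 2.51 and 5.90 CPM in the 0.2 mM plants, against 32.6, 26.4 and 21.7 CPM in the 2 mM plants (log2 -2.75). In each of these every 0.2 mM plant was below every 2 mM plant. In the other direction AT4G01390, a TRAF-like gene, had 7.42, 5.89 and 4.57 CPM in the 0.2 mM plants, against 0.642, 0.567 and 0.219 CPM in the 2 mM plants (log2 3.46). GID1B, a gibberellin receptor, had 2.63, 2.24 and 2.37 CPM in the 0.2 mM plants, against 0.759, 1.19 and 0.937 CPM in the 2 mM plants (log2 1.26). ELIP1, an early light-induced protein, changed by 1.38.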

How the data were processed

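Shoot RNA was sequenced by the authors from poly(A)-selected stranded libraries (75-bp paired reads, bcl2fastq 2.17.1.14 per the labels), and uniquely mapped reads were counted on TAIR10 in CLC Genomics Workbench. The deposited signal values are CPM divided by a library factor that is not named, and whether counting used strand is not stated, so reads of genes that overlap a neighbour cannot be told apart (among those named FER1, FLC, TT19, AT4G14090, CAT2, SCPL10, GASA6, GSTF2, COR15B, SARD1, MYC2, FRO3, CHS, F3H, AMT1;1, SMZ, APR2, AT3G51870, BHLH38, AT2G40010 and WRKY33). Of the values 100% were whole multiples of 1 read within 0.01, which gave the depths, and on these reads edgeR 4.0.16 called 364 genes and DESeq2 1.42.0 called 368. Of 28775 genes 28009 matched TAIR10.1 RefSeq names. log2(CPM + 0.1) was fitted by limma 3.58.1 (R 4.3.3, trended eBayes) as 8 group means over 24 libraries with 16 residual degrees of freedom; fold changes understate low genes. Differences between genotypes or days were called at the adjusted p alone. Replicates are separate plants. Alternatives were other pseudocounts, filters, scalings and fold limits, edgeR and DESeq2 on the recovered reads, a replicate block and leaving out each plant. In data simulated for this comparison over 15062 genes, 92.7% of 96 2-fold and 100% of 91 3-fold changes were called, with 0 false calls. Named genes are the 15 largest called rises and 15 largest called falls without overlap, the 5 and 5 largest of each difference, the 10 and 10 largest below the filter, list members, NRT1.13 and FLC. The members and lists were chosen with earlier results of these data known. A planned search for a phosphate starvation promoter motif was not run.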

Additional observations from a re-analysis of the deposited data

Results flagged for a closer look

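The nitrate effect in nrt1.13 differed between day 25 and day 16 for the 28 genes below, among other genes named above. The test was limma's test of the difference (adjusted p of at most 0.05), which 4400 of all genes tested passed (29.1%). Of the 30 genes named as the largest called rises and falls at day 25, 26 passed. Those 30 were chosen by their size at day 25, so a difference from day 16 is favoured by that choice. Each value is the log2 fold change (0.2 over 2 mM) at day 25 minus that at day 16. Among genes of pigment synthesis it was 1.33 for AT4G14090, 1.28 for TT19, 1.30 for UGT79B1, 1.08 for SCPL10 and 1.196 for LDOX. It was 0.80 for NEET, 0.96 for CAT2, 0.98 for AT1G60590, 0.87 for AT1G64360, 1.123 for GASA6, 1.48 for AT2G40010, 1.30 for FIB2 and 1.46 for AT3G51870, a mitochondrial carrier gene. Among cold-regulated genes it was -2.98 for COR413IM1, -2.78 for COR15A and -2.37 for LTI78. Among defence and jasmonate genes it was -2.84 for FAMT, -2.60 for CORI3, -1.76 for HR4, -1.61 for LURP1, -1.57 for WRKY70, -1.54 for GSTF2, -1.44 for SIB1, -1.42 for RK3 and -1.18 for CNGC3. It was -2.51 for AT1G76960, -1.71 for XBAT34 and -1.68 for AT5G08760. Groups of 3 plants were too small for a test of single outlying samples.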

How the results depend on the processing

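No called direction turned under any alternative run. The 374 calls became 809 with no filter on low values (228 higher, 581 lower) and 1261 at 1.5-fold (532 higher, 729 lower), both by construction. Leaving out 1 plant gave 360 to 421 calls, of which 311 to 349 were among the 374. The genotype difference gave 1 gene with no filter (AT2G29040), 18 genes at 1.8-fold with an unadjusted p, and 0 to 2 with 1 plant left out, the 2 being FSD1 and ASG8 without plant 3 of the 0.2 mM nrt1.13 group. The day difference gave 435 genes at 1.8-fold with an adjusted p, 445 with an unadjusted p and 3550 to 5097 with 1 plant left out. Same-numbered plants did not deviate together (correlations -0.165, -0.072 and 0.190), so the numbers do not pair the plants. With the replicate block the calls were 374 for the main comparison, 0 for the genotype difference and 4511 for the day difference. Other scalings moved the median of all genes by at most 0.026 on the log2 scale. Replicates differed beyond counting noise, with a chi-square per degree of freedom of 15.6 to 37.9 among 0.2 mM plants and 5.35 to 6.28 among 2 mM plants.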
